A study of Mus musculus with 8 samples.

Results

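The 78 protein-coding genes whose symbols begin with Mrpl or Mrps and a digit, the genes of the mitochondrial ribosomal proteins, were examined in 8 RNA-seq libraries of a mouse leukaemia. They were found by matching the identifiers of the expression table to GENCODE M21 symbols and are 78 of 54018 identifiers in all. The rule uses symbols and no measured value, though the family was chosen with earlier results of these data known. Of these genes 49 are named Mrpl and 29 Mrps, and by known structure 51 encode proteins of the large subunit and 26 of the small subunit. The remaining gene, Mrps36, keeps a ribosomal name but encodes a subunit of the oxoglutarate dehydrogenase complex. All 78 passed the filter on low values (at least 1 FPKM in at least 4 of the 8 libraries) and none was listed at 0 in any library. In addition 5 processed pseudogenes carry similar symbols and were not counted as members.

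The libraries hold polyadenylated RNA of spleen mononuclear cells taken from leukaemic mice of strain C57BL/6, a model of chronic lymphocytic leukaemia in which a TCL1A transgene under the Eµ enhancer is active in B cells. In the 4 knockdown libraries (genotype Kdm1aKD;Eµ-TCL1A, titled replicates 1, 2, 5 and 4) a construct induced by doxycycline lowers Kdm1a, a histone lysine demethylase. The 4 control libraries (Eµ-TCL1A, replicates 1 to 4) carry the same leukaemia transgene without that construct, so all 8 libraries come from leukaemic spleens. The labels give no age, do not tie a library to an animal and do not state whether control mice were given doxycycline, so p-values measure only the spread between these libraries, which may be technical. The question put to these genes is how their transcripts in the leukaemic spleen respond to a lowered Kdm1a.

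Mitochondria keep their own ribosome, which translates the messenger RNAs of the mitochondrial genome into core subunits of the respiratory chain and ATP synthase. Its rRNAs are transcribed inside the organelle, whereas all of its proteins are encoded in the nucleus, made in the cytosol and imported. Part of these proteins have counterparts in the bacterial ribosome and the others are found only in mitochondria.

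Values are FPKM (fragments relative to transcript length and to the library total), a level per transcript length that can be compared between genes. Depth estimated from the steps between low values, within the limited range of depths searched, was 40100000 to 47100000 fragments per library. Member levels were far above the step of 0.0212 to 0.0249 FPKM that 1 fragment would then add to a gene of 1 kilobase. The sum of all FPKM was 671700 to 762900 in 7 libraries and 572700 in control replicate 4. On the first principal component of all 12890 tested genes (43.5% of the variance) knockdown replicate 4 scored −78.3 and control replicate 4 scored 57.7, and the others lay between −33.4 and 26.6. Xist was at 94.9 to 175 FPKM in all 4 knockdown libraries and 110 in control replicate 1, and at most 0.128 in control replicates 2 to 4, and Ddx3y, a Y-linked gene, was at 11.7 to 31.5 FPKM in those 3 and at 0 elsewhere. Sex and group are thus partly confounded. Kdm1a had 20.2, 21, 15.6 and 15.5 FPKM in knockdown replicates 1, 2, 5 and 4 and 24.2, 21.2, 24.1 and 31.1 FPKM in control replicates 1 to 4, a knockdown mean of 71.9% of control. For Kdm1a the exact two-sided permutation p was 0.0286, the smallest that 70 assignments allow, and the adjusted p of limma was 0.223.

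Promoter sequence of 5 members is shown first, because the genes described below varied together and known regulators of nuclear genes for mitochondria bind near their start sites. RefSeq promoter windows (GRCm38.p6, 250 bases before to 50 after an annotated start) were at hand for 69 of the 78 members, in 75 windows. They were searched on both strands for the letters GCGCA, any base, GCGC (NRF1, nuclear respiratory factor), CCGGAAGT (the ETS motif, bound by the GABP complex among others), AAGATGGC (YY1) and CACGTG (the E-box, bound by MYC and others). Capitals mark the matches, and positions count from 1 at the 5′ end of the window. Mrpl12, Mrps22 and Mrps11 are shown as the members with the highest group difference among those with an NRF1, an ETS and a YY1 match. Mrps27 is shown for its ETS and YY1 matches in 1 window, and Mrpl24 as the member with the lowest difference and no match.
Mrpl12 (chr11:120484387-120484686, plus strand, NRF1 at 170): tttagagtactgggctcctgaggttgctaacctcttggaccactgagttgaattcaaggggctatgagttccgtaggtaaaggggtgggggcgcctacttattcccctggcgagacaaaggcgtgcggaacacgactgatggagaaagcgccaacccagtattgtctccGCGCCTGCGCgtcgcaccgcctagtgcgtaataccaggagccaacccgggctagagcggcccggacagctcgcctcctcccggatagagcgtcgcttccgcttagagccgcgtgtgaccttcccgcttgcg
Mrps22 (chr9:98601630-98601929, minus strand, ETS at 240): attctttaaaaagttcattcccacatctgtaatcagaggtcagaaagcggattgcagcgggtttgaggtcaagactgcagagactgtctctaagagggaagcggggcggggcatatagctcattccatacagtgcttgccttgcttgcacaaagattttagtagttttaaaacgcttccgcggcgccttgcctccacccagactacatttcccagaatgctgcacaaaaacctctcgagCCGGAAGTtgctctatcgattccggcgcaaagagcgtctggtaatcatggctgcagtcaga
Mrps27 (chr13:99344536-99344835, plus strand, ETS at 202 and YY1 at 265): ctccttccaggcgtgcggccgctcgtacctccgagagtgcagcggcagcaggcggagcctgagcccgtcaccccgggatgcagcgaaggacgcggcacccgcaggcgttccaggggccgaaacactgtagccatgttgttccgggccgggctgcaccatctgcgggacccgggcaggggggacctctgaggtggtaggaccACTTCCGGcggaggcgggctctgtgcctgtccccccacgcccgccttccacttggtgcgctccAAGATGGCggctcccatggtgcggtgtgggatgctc
Mrps11 (chr7:78782881-78783180, plus strand, YY1 at 144): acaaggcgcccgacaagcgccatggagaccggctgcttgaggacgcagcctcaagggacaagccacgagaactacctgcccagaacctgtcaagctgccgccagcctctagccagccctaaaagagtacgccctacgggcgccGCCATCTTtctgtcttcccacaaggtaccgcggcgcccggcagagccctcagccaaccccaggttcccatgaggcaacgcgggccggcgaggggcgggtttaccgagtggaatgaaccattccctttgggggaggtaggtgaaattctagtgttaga
Mrpl24 (chr3:87919294-87919593, plus strand, no match): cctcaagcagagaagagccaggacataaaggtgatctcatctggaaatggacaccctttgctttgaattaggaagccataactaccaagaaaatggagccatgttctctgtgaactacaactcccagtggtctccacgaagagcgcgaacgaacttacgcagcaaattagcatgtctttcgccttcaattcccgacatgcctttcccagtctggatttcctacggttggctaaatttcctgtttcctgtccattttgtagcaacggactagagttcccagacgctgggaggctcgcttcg

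An NRF1 match stood in 13 of the 75 member windows (17.3%), against 10.2% of 11657 windows of tested genes and 4.6% of all 32851 windows. ETS matches stood in 12 member windows (16%), against 8.51% and 3.89%. YY1 matches also stood in 12 (16%), against 4.65% and 2.75%. The E-box was in 7 (9.33%), against 10.1% and 7.15%. At least 1 of the NRF1, ETS and YY1 motifs was in 34 member windows (45.3%), compared with 21.5% of the windows of tested genes and 10.4% of all. In 1 member window, that of Mrps26, 2 NRF1 matches overlapped (at 249 and 255). GC content was similar, with a median of 58.7% in member windows and 60.3% in those of tested genes. The median log2 difference between the groups of libraries was 0.28 for the 13 members with an NRF1 match and 0.40 for the 56 without, and 0.39 for the 12 with a YY1 match and 0.38 for the 57 without. For ETS the medians were 0.41 with (12 members) and 0.38 without (57), and for the E-box 0.50 with (5) and 0.38 without (64). A match is a description of these letters and was not shown to be a bound site.

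The genes lie on 17 chromosomes, with 11 members on chromosome 11 and none on X. A protein-coding gene on the opposite strand started within 1000 bases upstream of 18 members (23.1%), against 6.79% of all 21951 protein-coding genes. The closest such pair, Mrpl54 and Apba3, starts 26 bases apart. Of the 17 neighbours that could be tested 10 had a positive and 7 a negative difference, with a median log2 difference of 0.10 and a range of −0.21 to 0.61, while the 18 members beside them had a median of 0.36. Mrpl30 and Mitd1, 66 bases apart, both had positive differences (0.66 and 0.53), while Mrps18b and Ppp1r10, 45 bases apart, had differences of 0.38 and −0.21; these pairs were chosen after their values were seen. Mrps11 and Mrpl46 start inside each other on chromosome 7 and their promoter windows share 141 bases. The spans of 42 members overlap another annotated gene. Since the use of strand in counting is not known, reads of such overlapping genes may not be told apart.

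Mitochondrial ribosomal protein transcripts were higher on average in the knockdown libraries, and no single member passed the test. The median over members was 32.5, 40.22, 36.41 and 52.45 FPKM for knockdown replicates 1, 2, 5 and 4. Control values of this median were 30.73, 32.36, 35.31 and 22.57 FPKM in replicates 1 to 4. Knockdown replicates 2, 5 and 4 were above every control library in this measure, and knockdown replicate 1 lay between control replicates 2 and 3. As a share of all FPKM the members made up 0.4154%, 0.5113%, 0.4686% and 0.6375% in the knockdown libraries. The control shares were 0.3848%, 0.388%, 0.4112% and 0.3522%, so every knockdown library was above every control library. Knockdown replicate 1 exceeded the highest control share by little.

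**Figure D1:**
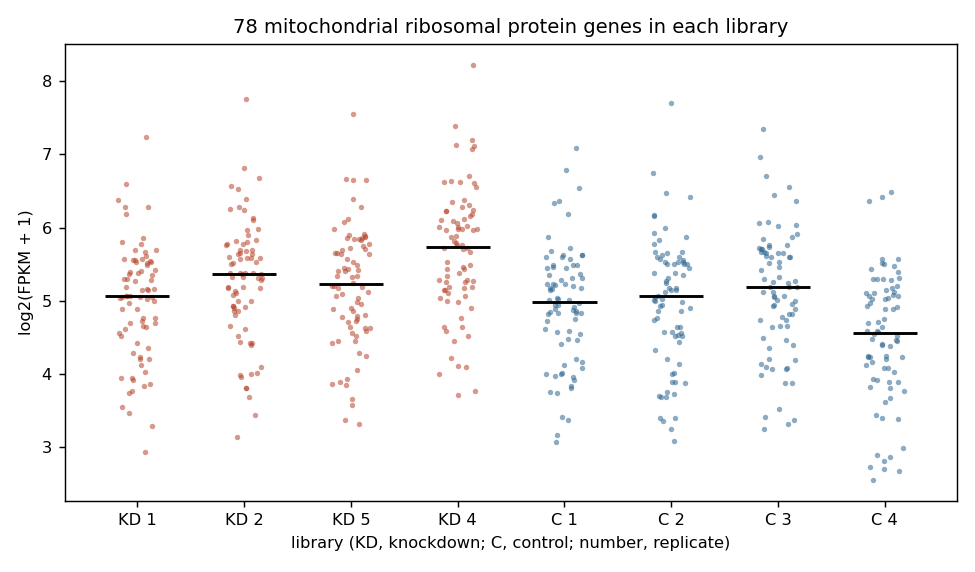
Level of each of the 78 genes (points, log2(FPKM + 1)) in each library, with the median as a bar; red are knockdown and blue control libraries. Knockdown replicate 4 has the highest median (52.45 FPKM) and control replicate 4 the lowest (22.57 FPKM), and the other 6 lie between 30.73 and 40.22 FPKM.

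Across all 12890 genes tested with limma and Benjamini-Hochberg adjustment 224 (1.74%) passed an adjusted p of 0.05, of which 210 were higher (1.63%) and 14 lower (0.109%). Of the 78 members 0 passed, and the smallest adjusted p among them was 0.0945 (Mrps10). At an unadjusted p under 0.05 there were 16 members, all higher, against 2040 higher genes of all tested (15.8%) and 2480 in both directions (19.2%). A positive difference was found for 75 members and a negative one for 3, while 63.7% of all genes had a positive difference. The median log2 difference of the members was 0.39 (range −0.08 to 0.91), against 0.13 over all genes. The knockdown mean exceeded the control mean more than 1.5-fold in 13 members and 1.2- to 1.5-fold in 44. In 9 members every knockdown value was above every control value, against 11.2% of all genes, and in 0 was every value below, against 1.9%. The share of members without overlap was thus close to that of all genes, while the share with a positive difference was higher. With median-of-ratios scaling, under which the median over all genes was 0.00, the members' median was 0.25 and 70 of 78 were positive.

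The replicate 4 libraries stood at the ends of the range. Knockdown replicate 4 held the highest value of 68 members and control replicate 4 the lowest value of 58, with 54 members doing both. Control replicate 4 was below the mean of the other 3 controls in 69 members, with a median log2 difference of −0.59, against −0.16 over all genes. Knockdown replicate 4 was above the mean of the other knockdown libraries in 76 members, with a median of 0.54, against −0.04 over all genes. With both libraries left out the members' median was 0.13 and 60 were positive, beside 0.10 and 65.6% over all genes. In the 6 remaining libraries the median of the list was thus close to that of all genes, with 10 members without overlap higher (12.8%), against 15.8% of all 12455 genes tested in that fit, and 1 lower, against 4.97%. Against the mean of control replicates 1 to 3, 66 members were higher in knockdown replicate 2, 61 in knockdown replicate 5 and 31 in knockdown replicate 1.

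**Figure D2:**
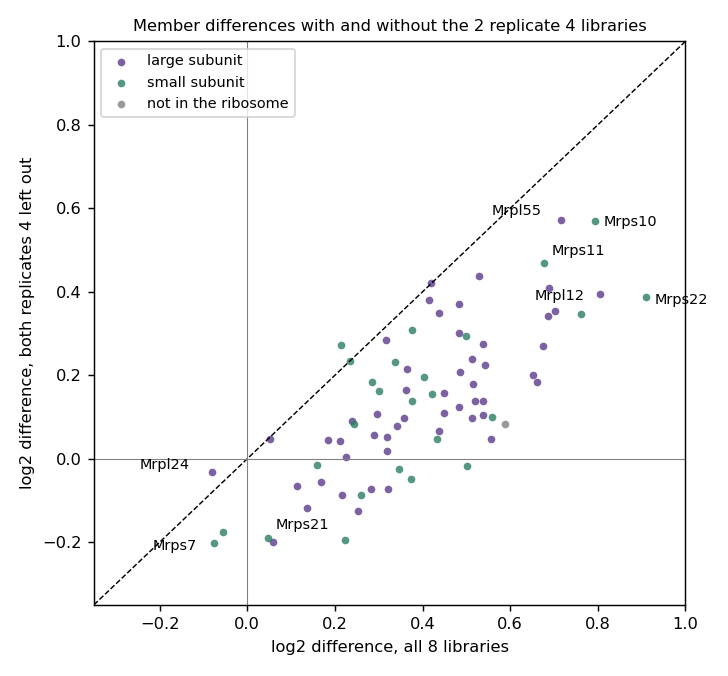
Log2 difference (knockdown minus control) of each member with all 8 libraries on the horizontal axis and with both replicate 4 libraries left out on the vertical axis; the dashed line marks equal values. Most points lie below the line, with a median of 0.39 on the horizontal and 0.13 on the vertical axis, while Mrpl55 and Mrps10 stay at 0.57.

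The members varied together. On the members alone the first principal component held 82.5% of the variance and the second 7.61%, and 77 of 78 loadings had the same sign. Scores on that first component were −0.84, 1.69, 1.19 and 5.59 in knockdown replicates 1, 2, 5 and 4 and −1.24, −0.91, 0.37 and −5.84 in control replicates 1 to 4. The component thus mainly sets the replicate 4 libraries apart, and no other list was measured in this way. The order of the genes by level was largely kept, with Spearman's rho over the 78 genes between 0.77 and 0.97 for the 28 pairs of libraries, genes not being independent replicates. The ratio of a member's highest to its lowest library ran from 1.24 to 6.32 with a median of 2.42.

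**Figure D3:**
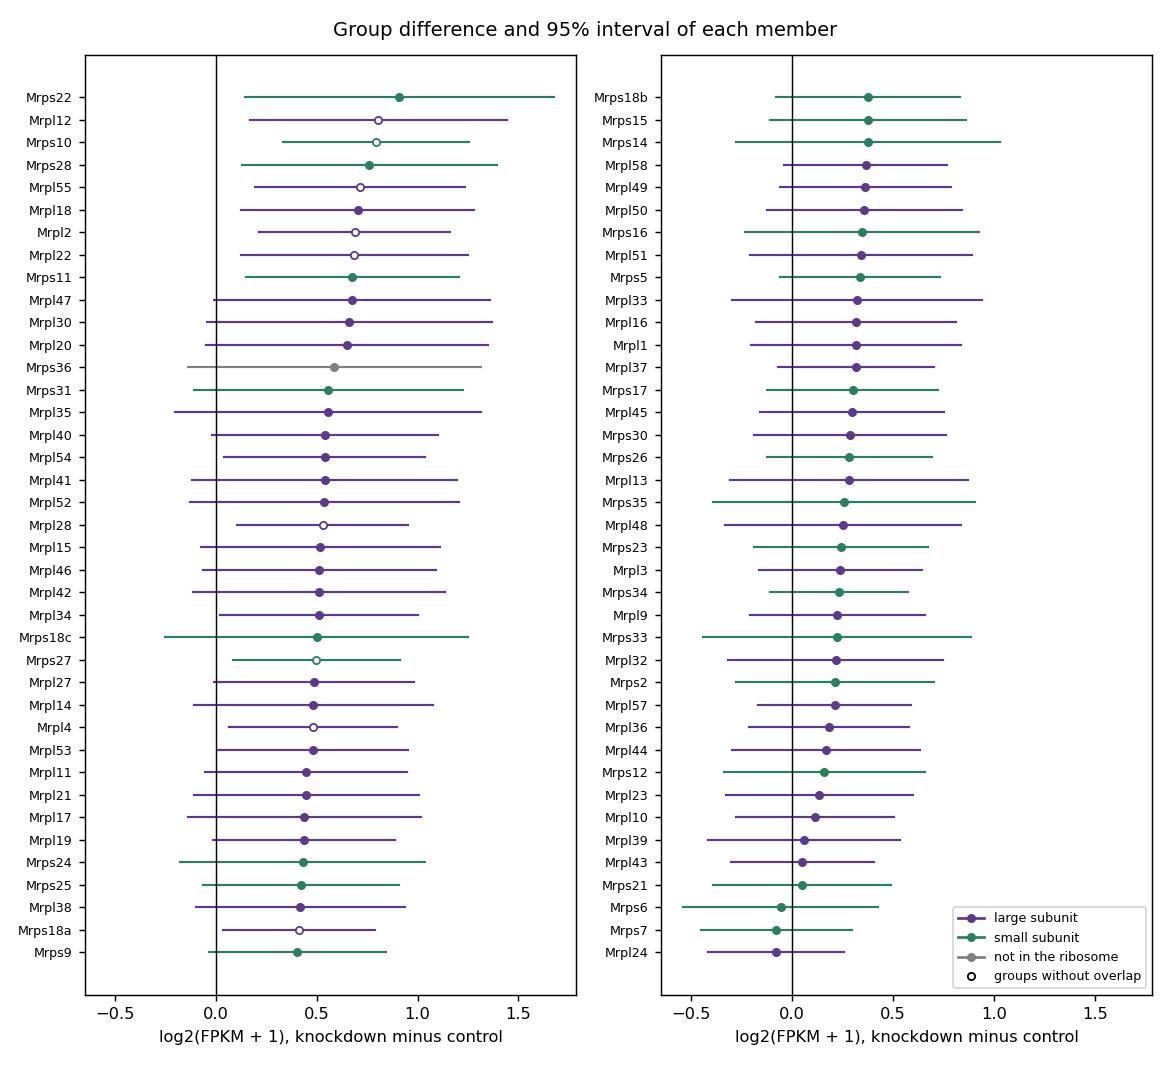
Log2 difference (knockdown minus control, log2(FPKM + 1)) of the 78 members with 95% intervals from limma, ordered by size and coloured by subunit; open points mark the 9 members whose groups do not overlap. Estimates run from 0.91 (Mrps22) to −0.08 (Mrpl24), and 16 intervals lie above 0.

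Of the large subunit's 51 members 50 had a positive difference, with a median log2 difference of 0.44, and 7 had groups without overlap. Of the small subunit's 26 members 24 were positive, with a median of 0.36, and 2 had groups without overlap. In all 9 the knockdown was higher, and 11.2% of all genes were higher without overlap. The sum of large-subunit levels over the sum of small-subunit levels was 2.152, 2.25, 2.26 and 2.301 in knockdown replicates 1, 2, 5 and 4 and 2.131, 2.125, 2.081 and 2.032 in control replicates 1 to 4. All 4 knockdown ratios were above all control ratios, though the means of 2.24 ± 0.06 and 2.09 ± 0.05 (SD, n = 4 each) were close. Sums give most weight to abundant genes, and medians did not order the libraries this way. In knockdown replicate 5 the large-subunit median was below the small-subunit median (35.95 and 36.38 FPKM), as it was in all 4 controls. Members with a bacterial counterpart (47) had a median of 0.41 and the 29 found only in mitochondria a median of 0.36. All 29 of the latter were positive, and the 3 negative members all belong to the bacterial class. None of these subgroups contained a called gene.

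Among the large-subunit proteins of the core, Mrpl2, which lies near the peptidyl transferase centre, had 32.5, 38.5, 39.4 and 53.5 FPKM in knockdown replicates 1, 2, 5 and 4 and 27.5, 28.9, 25.7 and 17.9 FPKM in control replicates 1 to 4. Its groups did not overlap, and the log2 difference was 0.69 ± 0.21 (SE), adjusted p = 0.142 by limma. The gene spans 46646229 to 46650139 on chromosome 17, plus strand (GRCm38), and 1 predicted gene overlaps it on the same strand. Mrpl4, a protein that reaches into the wall of the exit tunnel, had 40.5, 53.5, 36 and 58.2 FPKM in the knockdown libraries against 31.3, 31.7, 35.6 and 32.5 FPKM in control. The lowest knockdown value and the highest control value of Mrpl4 were nearly equal. Mrpl28 had 46.1, 62, 56.5 and 76.8 FPKM against 35, 40.6, 44.8 and 43.6 FPKM. For Mrpl28 control replicate 4 was not low, and the difference was 0.53 (adjusted p = 0.182, limma).

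Mrpl55, a large-subunit protein with no class assigned here, had 17.3, 24.3, 22.6 and 37.6 FPKM in knockdown replicates 1, 2, 5 and 4 and 12.5, 13.8, 15.7 and 16.4 FPKM in control replicates 1 to 4. Control replicate 4 was its highest control value. The difference of 0.72 ± 0.23 (SE; adjusted p = 0.156, limma) was 0.57 without both replicate 4 libraries, the largest of any member in that fit. It lies on chromosome 11 from 59202486 to 59206134 on the plus strand (GRCm38), and no other annotated gene overlaps it.

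The stalk of the large subunit and its base recruit translation factors, and 5 members build it. Mrpl12, the stalk protein itself, which has also been described as a partner of the mitochondrial RNA polymerase, had 54.8, 74.6, 61.8 and 97.9 FPKM in knockdown replicates 1, 2, 5 and 4. In control Mrpl12 had 42.6, 49.9, 51.6 and 23.1 FPKM, so every knockdown library was higher, and control replicate 4 stood low. The difference was 0.80 ± 0.28 (SE; adjusted p = 0.179, limma), and 0.39 without both replicate 4 libraries. The gene, whose promoter with the NRF1 match is printed above, spans 120484613 to 120489065 on chromosome 11 (plus strand). Mrpl10, the protein that anchors the stalk, had means of 27.7 and 25.6 FPKM and a difference of 0.11, and that of Mrpl11, at the stalk base, was 0.45. Mrpl53 and Mrpl54, the mitochondrial additions to the region, had differences of 0.48 and 0.54. Over the 5 genes all differences were positive, with a median of 0.48 and 3 at an unadjusted p under 0.05.

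The central protuberance, the crest of the large subunit that faces the small one, is represented by 7 members. All 7 differences were positive, with a median of 0.49 and a range of 0.25 to 0.70, and in none were the groups without overlap. Mrpl18 had 38.5, 50.5, 56 and 73.5 FPKM under knockdown against 35.65, 34.5, 41.7 and 21.1 FPKM in control. Only knockdown replicate 1 of Mrpl18 lay inside the control range, and the difference was 0.70 (adjusted p = 0.191, limma). Mrpl27, Mrpl40 and Mrpl46 had differences of 0.49, 0.54 and 0.51. Mrpl58, a former release factor that became a ribosomal protein, was at 0.37 and Mrpl48 at 0.25. Mrpl38 had its highest control value, 32.7 FPKM, in control replicate 4, the library that was lowest for most members. The other controls of Mrpl38 were at 21.1 to 22.8 FPKM.

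At the exit of the tunnel through which new proteins leave, 5 of 6 members had positive differences (median 0.37). Mrpl22 had 28.7, 38.8, 35.1 and 61.7 FPKM in the knockdown libraries against 27.4, 24.1, 28.5 and 18 FPKM in control, and the groups were separated by a narrow margin. Mrpl47 had a difference of 0.68, Mrpl17 of 0.44 and Mrpl45, which ties the ribosome to the inner membrane, of 0.30. Mrpl23 was at 0.14. Mrpl24 had 76.9, 83.2, 68.1 and 72 FPKM in knockdown replicates 1, 2, 5 and 4 and 81.5, 70.5, 81.3 and 84.4 FPKM in control replicates 1 to 4. Control replicate 4 held its highest value, the groups overlapped, and the log2 difference of −0.08 had a 95% interval of −0.42 to 0.26.

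Small-subunit members included the largest difference and the smallest p. Mrps10, a protein of the subunit's head, had 22, 29.5, 23.6 and 34.3 FPKM in knockdown replicates 1, 2, 5 and 4 and 15.1, 15, 19.5 and 11.8 FPKM in control replicates 1 to 4. The groups did not overlap, and the means were 27.35 ± 5.65 and 15.34 ± 3.16 FPKM (SD, n = 4 each). The difference of 0.79 ± 0.21 (SE, 95% interval 0.33 to 1.26) did not pass the test (adjusted p = 0.0945, limma), and it was 0.57 without both replicate 4 libraries. With limma's array weights, estimated from the spread of these same values, Mrps10 was the single member called, at 0.67 (adjusted p = 0.0412, limma). In that fit 669 genes were called higher and 92 lower, of 12890 tested. Mrps10 spans 47368887 to 47381417 on chromosome 17, plus strand (GRCm38), with no overlapping annotated gene.

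Mrps22, a small-subunit protein known only from mitochondria, had 14, 20.4, 20.4 and 38 FPKM in knockdown replicates 1, 2, 5 and 4 and 13.3, 11.8, 15.8 and 6.01 FPKM in control replicates 1 to 4. Knockdown replicate 1 was below control replicate 3, so the groups overlapped, and the 2 most distant values were those of the replicate 4 libraries. Its difference of 0.91 ± 0.34 (SE; adjusted p = 0.199, limma) was the highest of all members with 8 libraries and 0.39 without the replicate 4 libraries. Mrps27, a pentatricopeptide repeat protein, had 10.7, 13.1, 11.6 and 16.1 FPKM against 9.66, 9.21, 9.34 and 6.91 FPKM. Its groups did not overlap, and the difference was 0.50. Mrps28 had 24.1, 32.9, 33.8 and 55.5 FPKM against 23.4, 22.5, 24.1 and 13 FPKM, a difference of 0.76, with knockdown replicate 1 level with control replicate 3. Mrps11, chosen after its values were seen, had 17.7, 33.5, 23 and 35.4 FPKM against 16, 19.1, 16.2 and 13.8 FPKM. The difference of Mrps11 was 0.68, and that of Mrpl46, whose start it overlaps, 0.51.

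**Figure D4:**
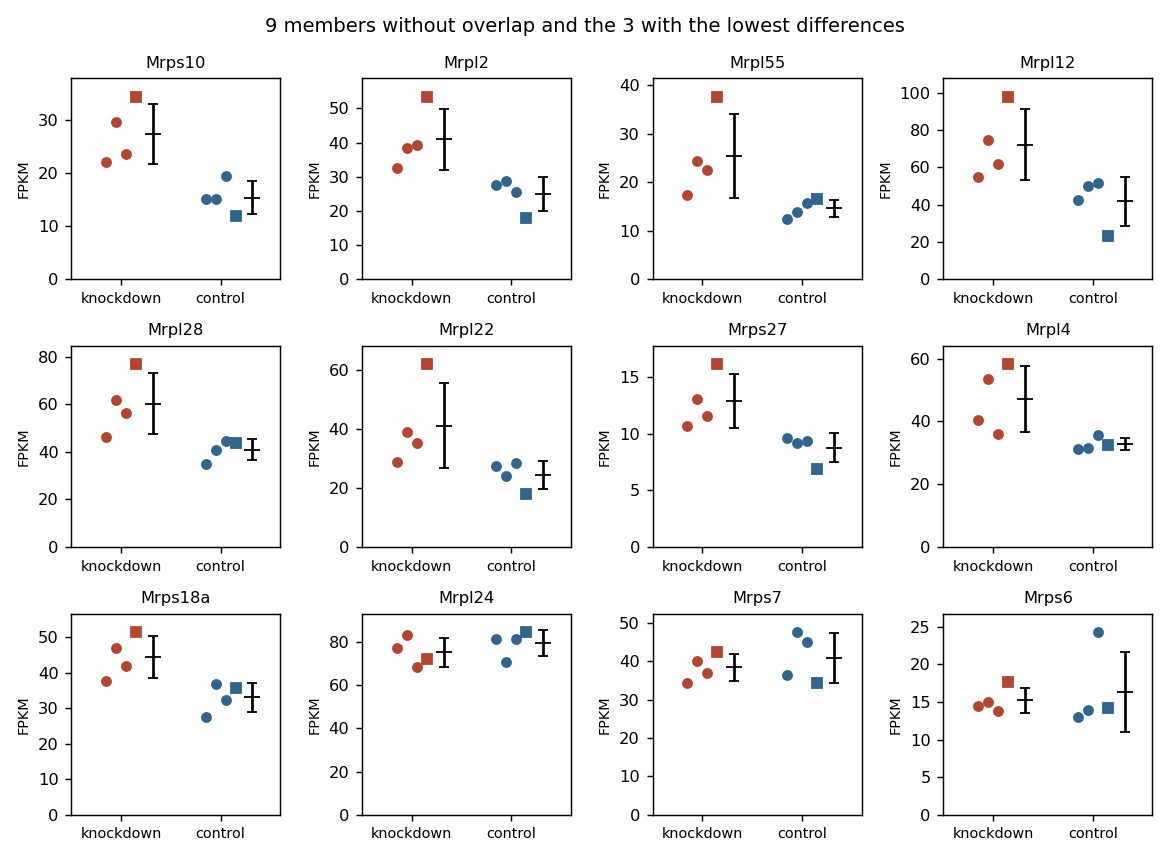
FPKM in each library (squares are replicate 4) with mean and SD (n = 4) for the 9 members whose groups do not overlap and the 3 with the lowest differences. Mrps10 and Mrpl12 separate with means of 27.35 against 15.34 and 72.3 against 41.8 FPKM, whereas Mrpl24, Mrps7 and Mrps6 overlap.

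The other low end of the list is also in the small subunit. Mrps7, which binds the rRNA of the head, had means of 38.4 ± 3.58 FPKM in knockdown and 40.8 ± 6.5 FPKM in control (SD, n = 4 each), a difference of −0.08. Mrps6 had 14.4, 15, 13.8 and 17.7 FPKM against 13, 13.9, 24.3 and 14.2 FPKM. Control replicate 3 alone was high for Mrps6, and without it the difference turned from −0.06 to 0.14. Mrps21 had 95.4, 101.7, 99.7 and 138.6 FPKM against 109.2, 106.6, 124.1 and 81.1 FPKM, a difference of 0.05 that was −0.19 without the replicate 4 libraries and −0.10 with median-of-ratios scaling. Set against the members' own median, the differences of Mrpl24, Mrps7, Mrps6 and Mrps21 were −0.49, −0.48, −0.44 and −0.36, and those of Mrps22, Mrps10 and Mrpl12 were 0.53, 0.40 and 0.40. In that scaling 5 members had an unadjusted p under 0.05 and 0 passed the adjusted threshold in limma.

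Mammals have 3 paralogs of the bacterial S18 protein, each able to take a place in a ribosome, Mrps18a in the large and Mrps18b and Mrps18c in the small subunit. Mrps18a had 37.6, 46.9, 42 and 51.4 FPKM in knockdown replicates 1, 2, 5 and 4 and 27.6, 36.8, 32.4 and 35.7 FPKM in control replicates 1 to 4, without overlap. Its difference of 0.41 was 0.38 without the replicate 4 libraries. Mrps18b was at 0.38 and Mrps18c at 0.50, but Mrps18c was at −0.02 without the replicate 4 libraries. Mrps36, the dehydrogenase subunit, had 31.5, 35.6, 41.8 and 77.9 FPKM against 29.7, 37.4, 35.3 and 17.4 FPKM, a difference of 0.59. Its value without the replicate 4 libraries was 0.08.

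Levels differed widely between members. Mrpl52 was the most abundant, with a mean of 212.5 FPKM in knockdown and 148.1 FPKM in control. In single libraries it had 150, 215.1, 187 and 297.9 FPKM in knockdown replicates 1, 2, 5 and 4 and 134.8, 207.5, 161.1 and 88.87 FPKM in control replicates 1 to 4, with wide overlap. Mrps21 (108.8 and 105.2 FPKM), Mrpl30 (115.2 and 73.9), Mrpl33 (101 and 82.4) and Mrpl42 (97.6 and 67.7) followed, and the ranges of these 4 over the libraries overlapped. The least abundant was Mrpl1, with means of 9.12 and 7.05 FPKM, preceded by Mrpl11 (11.2 and 7.9), Mrps30 (10.8 and 8.78), Mrps27 (12.9 and 8.78) and Mrps31 (16.2 and 10.9). The size of the group difference was not ordered by level, with a Spearman's rho of −0.06 over the 78 genes, and only weakly by transcript length (−0.25). The 53 members with a median transcript under 1000 bases had a median difference of 0.44 and the 25 longer ones 0.32. Among all genes with a mean of at least 5 FPKM the medians were 0.19 for short and 0.11 for longer transcripts.

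The 5 mitoribosomal subunits whose genes have other names had differences within the members' range. Gadd45gip1 had means of 8.96 and 5.43 FPKM (difference 0.60) and Aurkaip1 90.2 and 62.3 FPKM (0.57), both without overlap. Over all genes 11.2% were higher without overlap. Ptcd3 was at 0.42, Dap3 at 0.38 and Chchd1 at 0.27. The median was 0.42, and 0 of 5 passed the test. That median was 0.18, and Chchd1 was at −0.10, without the replicate 4 libraries.

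With all 8 libraries, genes that act on or beside the mitochondrial ribosome showed smaller medians than the members and no calls. For the counts of genes without overlap given here, the share over all genes was 11.2% higher. Of 25 assembly factors and rRNA modifying enzymes 21 were positive (median 0.21), 0 passed, and 4 had groups without overlap, among them Rbfa, which matures the small-subunit rRNA (35.1 against 20.9 FPKM, difference 0.73, adjusted p = 0.12 by limma), and Gtpbp10, a GTPase of large-subunit assembly (6.84 against 3.85 FPKM, 0.70). Of 15 translation factors 12 were positive (median 0.24) and 0 passed. Lrpprc, which stabilises mitochondrial messenger RNA, was at 24.8 against 15.55 FPKM, and Gfm1, an elongation factor, at 31.6 against 19.8 FPKM. Among 22 mitochondrial aminoacyl-tRNA synthetases 17 were positive (median 0.14), 0 passed, and Iars2 (20.9 against 13.2 FPKM) and Aars2 (5.76 against 3.72) did not overlap. For transcription and RNA processing 10 of 11 measured genes were positive (median 0.27) and 0 passed, with the nuclease gene Pnpt1 at 27.9 against 17 FPKM. Without the replicate 4 libraries the medians were 0.04 for assembly factors, 0.09 for translation factors and 0.03 for transcription and RNA processing. For the synthetases the median in that fit was 0.16, above the members' 0.13.

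Known regulators of these genes had no member near the threshold. Over 10 tested regulators of mitochondrial biogenesis the median was 0.14, 7 were positive, 0 passed and none had groups without overlap. Without the replicate 4 libraries the median of this list was 0.17 with 8 positive, beside a median of 0.13 for the members. Nrf1 had means of 25.9 and 20.8 FPKM (0.30), Gabpa 19.6 and 20.2 FPKM (−0.05), Yy1 28.4 and 32.2 FPKM (−0.19) and Myc 125.7 and 113.3 FPKM (0.20). The coactivator gene Ppargc1a did not reach the filter, with at most 0.604 FPKM.

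The ribosome's RNA partners had a lower median difference than its proteins. The 2 mitochondrial rRNAs, read here in polyadenylated RNA, had a summed 562.6, 647.3, 895.7 and 806.1 FPKM in knockdown replicates 1, 2, 5 and 4 and 838.9, 1034, 1012 and 274.1 FPKM in control replicates 1 to 4. Control replicate 4 was low by far and the others overlapped, so the median difference of 0.03 over the pair was −0.48 without the replicate 4 libraries. Of 13 mitochondrial messenger RNAs 11 were positive (median 0.25) and 0 passed, and the median without the replicate 4 libraries was −0.06. Several, such as mt-Co3 (0.788 to 3.98 FPKM), were listed at levels far below mt-Nd1 (1173 to 5576 FPKM). How the authors counted reads of the mitochondrial genome is not given in the sources used here, and whether the low values come from that counting was not tested, so the median of this list is uncertain. The mitochondrial genome's share of all FPKM was 7.475% in control replicate 4 and 9.94% to 15.1% in the other libraries.

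The nuclear subunits of oxidative phosphorylation, the machinery the ribosome serves, had differences like those of the members. Of 73 measured genes 72 were positive with a median of 0.41, and 0 passed. In 5 the knockdown was higher without overlap, against 11.2% of all genes. Among these 5 were Atp5g1 (191 against 100 FPKM, 0.86) and Ndufv1 (62.2 against 37 FPKM, 0.69). Their median without the replicate 4 libraries was 0.06, beside 0.13 for the members. Of 85 cytosolic ribosomal protein genes 82 reached the filter. Of these 44 were positive, 0 passed, the median was 0.01, and none had groups without overlap. Their median was −0.31, with 3 of 82 positive, without the replicate 4 libraries. The ratio of the median cytosolic to the median mitochondrial ribosomal protein level was 42.7, 31.1, 39.4 and 31.4 in knockdown replicates 1, 2, 5 and 4 and 50.5, 57.5, 51.8 and 35.4 in control replicates 1 to 4. Control replicate 4 fell inside the knockdown range of this ratio, and the other 3 controls lay above it.

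**Figure D5:**
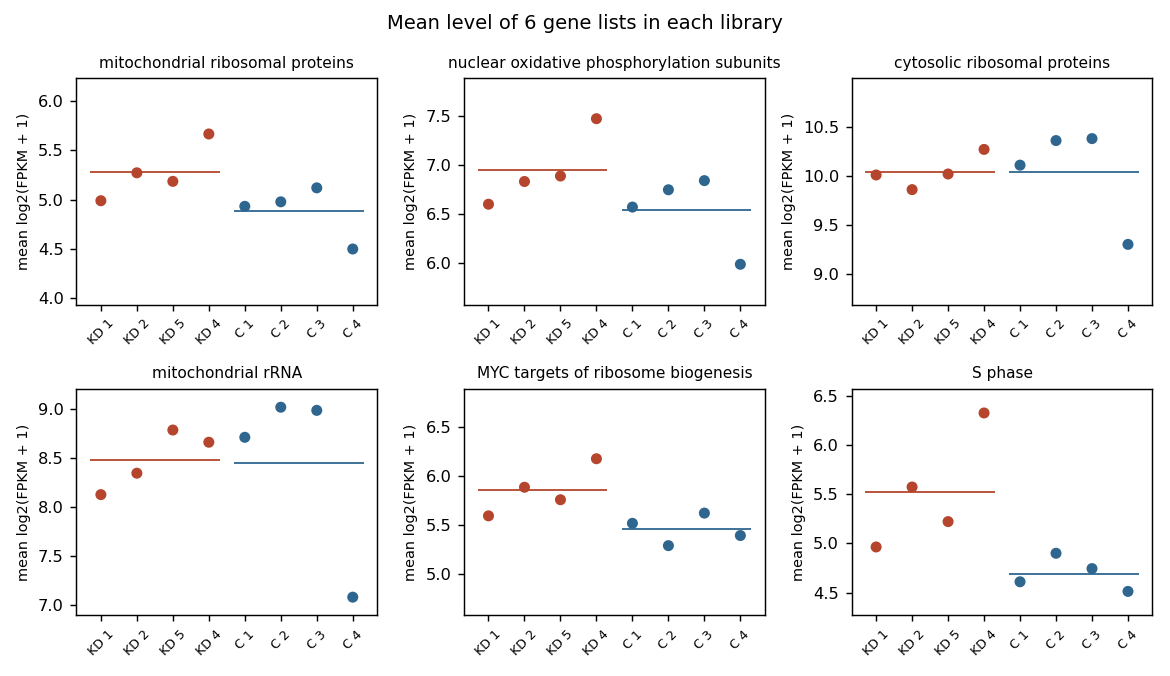
Mean log2(FPKM + 1) of 6 gene lists in each library (red knockdown, blue control, lines are group means; each axis spans the same range). Mitochondrial ribosomal proteins (4.99, 5.27, 5.19 and 5.67 against 4.93, 4.98, 5.12 and 4.50) and S phase genes are highest in knockdown replicate 4, and cytosolic ribosomal proteins and mitochondrial rRNA are lowest in control replicate 4.

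Genes of dividing cells had higher medians than the members, with no call among them and no test of the difference between the lists. All 27 measured S phase genes were positive, with a median of 0.75, and 0 passed. In 10 the knockdown was higher without overlap, against 11.2% of all genes. Cdca7 had 44.8 against 15.6 FPKM and Chaf1b 25.7 against 6.7 FPKM. The mean level of this list was 4.96, 5.57, 5.22 and 6.33 (log2(FPKM + 1)) in knockdown replicates 1, 2, 5 and 4 and 4.61, 4.90, 4.74 and 4.51 in control replicates 1 to 4, again highest in knockdown replicate 4 and lowest in control replicate 4. With this level as a covariate the members' median was −0.04 and 32 of 78 were positive; the list itself separates the groups, so the 2 terms share information. All 18 mitosis genes were positive (median 0.89) and 0 passed. Of 33 MYC targets of ribosome biogenesis 31 were positive (median 0.40) and 0 passed, with the nucleolar gene Nop56 at 206 against 132 FPKM. Without the replicate 4 libraries the medians were 0.44 for S phase, 0.55 for mitosis and 0.24 for the MYC targets.

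Transcripts that mark cell types also differed between the libraries, and in bulk RNA fewer cells of a type and less RNA per cell cannot be told apart. The summed FPKM of 9 B cell markers ran from 1353 to 3657 in knockdown and 4154 to 4626 in control, and was lowest in knockdown replicate 4. All 9 differences were negative (median −0.68), and 0 passed. The median was −0.21, with 1 marker positive, without the replicate 4 libraries. Erythroid markers summed to 1138, 2978, 1391 and 31310 FPKM in knockdown replicates 1, 2, 5 and 4. In control replicates 1 to 4 they summed to 3283, 8124, 8543 and 4758 FPKM. Knockdown replicate 4 was thus above every control library, and knockdown replicates 1, 2 and 5 were below every control library. The erythroid list was mixed, with 9 of 15 genes positive (60%, against 63.7% of all genes) and 6 negative, the lowest at −1.77. In this list 1 gene passed, Gata1, an erythroid transcription factor (58.2 against 6.14 FPKM, adjusted p = 0.0254 by limma). Over all genes tested 1.63% passed as higher. All 9 monocyte and macrophage markers were positive (median 1.01, 0 passed), with sums of 292.7 to 636.3 against 91.56 to 287.4 FPKM. Of 6 stem and progenitor genes 4 reached the filter, all positive, and Sox4 and Kit passed (adjusted p = 0.0104 and 0.0277 by limma). Of 7 megakaryocyte and platelet genes 5 reached the filter, with 4 positive and 1 negative (−0.63). Pf4 and Itga2b of that list passed as higher (adjusted p = 0.0311 and 0.0454 by limma). Without the replicate 4 libraries Gata1 still passed (adjusted p = 0.0437, limma), while Pf4, Itga2b and Kit did not (0.0768, 0.15 and 0.122). Sox4 did not reach the filter and was not tested there. The filter still asked for 1 FPKM in 4 libraries, so a gene reaching that level in only 1 group could not enter this fit. With all 8 libraries such a gene could enter through 1 group alone, so the call of Sox4 may depend on the filter.

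Of 8 neutrophil genes 3 passed as lower, Camp, Ngp and Ltf (adjusted p = 0.0132, 0.0189 and 0.0485 by limma). Over all genes tested 0.109% passed as lower. The list was mixed, with 6 negative and 2 positive differences, the highest at 2.05, and 1 gene was higher without overlap. Its sum was 25.33 to 205.8 FPKM in knockdown and 68 to 461.4 FPKM in control. Without the replicate 4 libraries Ltf did not pass (adjusted p = 0.18, limma). Camp and Ngp did not reach the filter, which still asked for 4 libraries, so they were not tested in that fit. As for Sox4, their calls with all 8 libraries may depend on the filter. All 7 plasma cell genes were negative (median −0.95, 0 passed), with sums of 453.3 to 967.3 against 941.4 to 1635 FPKM. T cell genes (8 of 9 positive, median 0.48, sums of 271.8 to 599.2 against 236.5 to 628.5 FPKM) and NK cell genes (6 of 6, median 0.46, sums of 61.27 to 105.2 against 16.4 to 120.4 FPKM) did not pass. The medians of plasma cell, T cell and NK cell genes without the replicate 4 libraries were −0.63, 0.33 and 0.27. For stroma and endothelium only Pecam1 of 6 genes reached the filter, at 40.1 against 43.3 FPKM. The part of these cell types in the members' difference was not tested. With sex as a covariate, estimated from control replicate 1 against the other controls, the members' median was 0.33 and 73 of 78 were positive. Against control replicate 1, the 1 control with high Xist, all 4 knockdown libraries were higher in 44 of 78 members, compared with 27.4% of all genes.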

How the data were processed

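RNA was isolated by a mirVana kit, selected for polyadenylation and read by a NovaSeq instrument, per the labels' protocols. The authors deposited 1 table of FPKM for 54018 identifiers and 8 libraries. CASAVA and Cufflinks are named, with no version, in the submitters' processing notes. Which aligner, build, annotation and strand setting were used is not given in the sources used here. Each FPKM value is relative to each library's total, so a few abundant transcripts move all other values. The depth given is an estimate from the steps between low values, of which 97.1% to 97.6% lay within 0.1 of a whole number of fragments. Only a limited range of depths was searched. A depth lower by a whole factor would score as well, so this share does not fix the depth. An exact 0 can be a failed estimate: 28 genes with a median above 10 FPKM had one, none of them a member.

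Identifiers were named with GENCODE M21 (GRCm38), which matched 53865, and 25157 were at 0 in every library. Of the lists' symbols 4 found no match. The 12890 genes reaching 1 FPKM in 4 or more of the 8 libraries were compared on log2(FPKM + 1) by limma 3.58.1 (R 4.3.3, mean-variance trend, no covariate), with Benjamini-Hochberg adjustment over all genes and a threshold of 0.05. Fold changes on this scale are understated for low genes. Planted changes in simulated data were used to test the fit. Lists are described by counts and medians, without a set test. The members and lists were chosen with earlier results of these data known. Replicate numbers 1, 2 and 4 occur in both groups.

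Named were Kdm1a, members past the threshold, up to 12 with the smallest p among those without overlap, the 4 highest and 4 lowest differences, the 5 highest and 5 lowest levels, the Mrps18 paralogs, members of the stalk, central protuberance and exit tunnel, 5 subunits named otherwise, and 2 to 4 genes of each related list with the smallest p. Of long lists fewer were printed. Regulators and marker genes were also named where a statement rests on them, and such genes and Mrps11, Mrps36, Mitd1, Ppp1r10 and Apba3 were singled out after their values were seen. Alternatives changed the pseudocount, the filter, the scaling, weights, trend, covariates and the libraries used. Fits with fewer libraries kept the filter's minimum of 4 libraries. Scaling to the members' median was added after the data were seen.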

Additional observations from a re-analysis of the deposited data

Results flagged for a closer look

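Of 94 groups of 4 libraries looked at for the named genes, 5 held a value whose gap to the nearest other, as a share of the group's range, exceeded Dixon's 95% critical value, which chance gives in about 1 of 20 groups. Over all members it was 9 of 156 groups. Mrps27 had 6.91 FPKM in control replicate 4, with the other controls at 9.21 to 9.66. Mrps28 had 13 FPKM in control replicate 4, with the others at 22.5 to 24.1. Mrpl38 went the other way in the same library, with 32.7 FPKM and the others at 21.1 to 22.8. Mrps21 had 139 FPKM in knockdown replicate 4, with the others at 95.4 to 102. Mrps6 had 24.3 FPKM in control replicate 3, with the others at 13 to 14.2.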

How the results depend on the processing

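No member was called under any alternative except array weights, where 1 was (Mrps10, 0.669), so the absence of calls held in the others, each library left out included. The number of genes called among all was 24 with a pseudocount of 5, 2 with no filter, 71 with a mean of at least 5 FPKM, 124 with median-of-ratios scaling, 126 with quantile normalization, 761 with array weights, 2 with sex as covariate, 16 with the S phase covariate, 60 without both replicate 4 libraries, 145 with scaling to the members' median, and 6 to 216 with 1 library left out (6 without knockdown replicate 2, 7 without control replicate 4). The fit with replicate number as a block called 0 genes, with 0 members and a members' median of 0.464; deviations of same-numbered libraries correlated at 0.163, 0.0469 and −0.118 for numbers 1, 2 and 4, so the pairing is only by number. The members' median was −0.0367 with 32 positive under the S phase covariate and −0.0109 with 39 positive when scaled to their own median, the last by construction. It was 0.249 with median-of-ratios scaling, 0.227 with quantile normalization, 0.201 with array weights, 0.132 without both replicate 4 libraries and 0.277 to 0.484 with 1 library left out. Members without overlap numbered 4 (3 higher, 1 lower) with median-of-ratios scaling, against 6.71% and 4.74% of all genes. With 1 library left out they numbered 9 to 24 (24, or 30.8%, without knockdown replicate 1, against 20.3% of all genes, and 21, or 26.9%, without control replicate 3, against 18.6%). Differences of some named genes changed sign, and the cause was not tested. With median-of-ratios scaling Mrps21 was −0.0965, Mrpl23 −0.00689 and Mrpl10 −0.0277, and with quantile normalization −0.0957, −0.0273 and −0.0548. With array weights Mrps21 was −0.133, Mrpl33 −0.00943, Mrpl48 −0.0599, Mrpl23 −0.0823, Mrpl10 −0.00386 and Chchd1 −0.0724. Mrps6 was 0.182 with the replicate block, 0.21 with sex as covariate and −0.145 to 0.14 with 1 library left out (0.14 without control replicate 3), and with sex Mrps7 was 0.0726 and Mrps21 −0.0204. With the S phase covariate Mrps21 was −0.312, Mrpl52 −0.174, Mrpl30 −0.0441, Mrpl33 −0.202, Mrpl42 −0.155, Mrpl1 −0.158, Mrps31 −0.0744, Mrpl40 −0.022, Mrpl17 −0.0916, Mrps18c −0.227, Mrpl48 −0.143, Mrpl23 −0.248, Mrpl10 −0.182, Dap3 −0.06 and Chchd1 −0.302. Mrps21 was −0.0722 without knockdown replicate 4 and −0.0701 without control replicate 4, where Mrpl23 was −0.0161 (−0.0161 to 0.233 with 1 library left out). Without both, Mrps21 was −0.191, Mrpl33 −0.0729, Mrps18c −0.0166, Mrpl48 −0.125, Mrpl23 −0.117, Mrpl10 −0.0659 and Chchd1 −0.103. The lowest member value in any library was 4.86 FPKM, far above the step of 1 fragment.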
